A study of Mus musculus with 8 samples.

Results

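The genes described here are 10 components or regulators of the Polycomb repressive complexes, measured in 8 pools of mouse 2-cell embryos whose fathers differed. They were chosen by name and not by a threshold on their values: Ezh2, Ezh1, Eed and Suz12 of Polycomb repressive complex 2 (PRC2), Rnf2, Ring1, Bmi1, Cbx2 and Cbx7 of Polycomb repressive complex 1 (PRC1), and Ezhip, an inhibitor of PRC2 made in oocytes. Each symbol was carried alone by 1 probeset of the array, so 10 of 14995 named genes were followed, and all 10 were bright enough to be tested with the 11444 genes above the filter level of log2 2.07. C57BL/6 females were given 5 IU of each gonadotropin and mated with C57BL/6 males (3 arrays), with KDM1A transgenic males (KDM1A TG, 3 arrays) or with non-transgenic males of the same litters (nonTG, 2 arrays). Sample titles write the latter groups as TG3 and nonTG3, and the titles do not say what the 3 stands for. KDM1A, also called LSD1, is a histone demethylase that acts on H3K4. The series asks what disturbed histone methylation in developing sperm does to the offspring. All mothers were C57BL/6, so the labels set the groups apart by the sire alone, and embryos are named here after it. The genotype of the embryos was not given, nor were the promoter of the transgene and the number of males behind the pools. Embryos were flushed from the oviduct 46 to 48 hours after hCG and pooled, 26 on average. The labels do not say whether pools came from separate males, so the p-values below rest on pool-to-pool spread that may be technical.

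Polycomb proteins keep developmental genes silent. In PRC2 the methyltransferase EZH2, or its less active paralogue EZH1, places methyl groups on H3K27 with the help of the scaffold SUZ12 and of EED, which binds the finished mark and stimulates the enzyme. In PRC1 the ubiquitin ligases RNF2 (RING1B) and RING1 work with a Pcgf protein such as BMI1 to mark histone H2A, and CBX2 and CBX7 read H3K27 methylation through a chromodomain. EZHIP holds PRC2 activity down through a short stretch that mimics an altered histone H3 tail. In the mouse the oocyte passes both H3K27 methylation and stored messenger RNA to the embryo, and the 2-cell stage is when that RNA declines and the embryonic genome is switched on.

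The start regions of 4 of these genes are shown: Suz12, Rnf2 and Bmi1, which followed one another across the arrays, and Ezhip, which differs from them in sequence. A link between start sequence and array values was not tested. Each line gives the 150 bases before the annotated start, 5′ to 3′ on the strand of the gene, from RefSeq on GRCm38.p6, with CG dinucleotides (CpG) in capitals. The stretches lie at chr11:79992956-79993105 (+ strand) for Suz12, chr1:151500992-151501141 (- strand) for Rnf2, chr2:18676868-18677017 (+ strand) for Bmi1 and chrX:6083421-6083570 (- strand) for Ezhip.
Suz12: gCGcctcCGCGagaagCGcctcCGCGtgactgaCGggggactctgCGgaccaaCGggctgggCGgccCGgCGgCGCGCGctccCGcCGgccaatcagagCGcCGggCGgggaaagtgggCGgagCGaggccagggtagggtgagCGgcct
Rnf2: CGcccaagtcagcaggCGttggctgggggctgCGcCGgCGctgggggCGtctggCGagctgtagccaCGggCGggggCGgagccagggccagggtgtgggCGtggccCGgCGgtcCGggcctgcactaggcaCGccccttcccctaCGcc
Bmi1: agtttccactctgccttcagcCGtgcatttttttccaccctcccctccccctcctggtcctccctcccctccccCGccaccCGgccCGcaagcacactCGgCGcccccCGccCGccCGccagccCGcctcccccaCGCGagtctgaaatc
Ezhip: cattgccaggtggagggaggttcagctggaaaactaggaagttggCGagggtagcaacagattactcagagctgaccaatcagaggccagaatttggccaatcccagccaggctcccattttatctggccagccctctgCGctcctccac

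Promoter sequences were matched by symbol for 9 of the 10 genes, and Cbx2 is the one without an entry. In the 250 bases before the start used by each promoter entry, Suz12 held 37 CpG, Ring1 30, Ezh2 and Cbx7 23 each, Bmi1 21, Rnf2 20, Ezh1 14 and Eed 12. The median was 6 over 32851 promoter windows of the same length. Ezhip held 4, and 37.8% of all windows held fewer, compared with 66.5% for Eed and 97.8% for Suz12. The CCAAT letters, searched on both strands, occurred 3 times in Ezh2, 2 times in Ezhip and once each in Suz12 and Cbx7, and in 33.8% of all windows. GGGCGG, also on both strands, was found 6 times in Bmi1, 3 times in Suz12, 2 times each in Rnf2 and Ring1 and once in Cbx7, and in 32.7% of all windows. CACGTG, which reads the same on both strands, was present in Bmi1 alone among the 9 and in 6.02% of all windows, and TATAAA (both strands) was in none of the 9 and in 12.4% of all windows. These matches describe letters and say nothing on binding. The Cbx7 window (chr15:79932647-79932896) lay inside the gene as annotated, which runs from 79915804 to 79971143. The Ezh2 window (chr6:47595031-47595280) lay mostly inside its gene, which ends at 47595270 on the side of the start. Counts for Cbx7 and Ezh2 therefore do not describe bases before the outermost annotated start.

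Across the series, deposited values ran from log2 0.12 to 12.36 and array medians from 2.73 to 2.86. KDM1A TG replicates 1 and 3 were spread more widely than the others, with interquartile ranges of 2.38 and 2.60 against 1.87 to 2.09. No check of the transgene was made, because Kdm1a is named alone by 0 probesets. Of 17 measured markers of the 2-cell stage, 13 lay above the filter level, among them Zscan4c (2.72 to 4.45) and Zfp352 (2.16 to 3.87). So did 17 of 17 stored oocyte transcripts such as Zp3 (3.57 to 5.75). Oviduct epithelium markers were also above it, 16 of 16, with the ciliary regulator Foxj1 at 4.62 to 6.29, and so were 18 of 18 stromal and muscle markers, with Acta2 at 3.70 to 7.88. Of 14995 named genes 11444 lay above it, so such counts alone do not show that a cell type was present. Values below are log2 expression per probeset, and since probesets differ in brightness they are compared within a gene and never between genes.

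None of the 10 genes passed limma's test between sire groups after adjustment over all genes tested. Differences between group means ran from -0.76 (Ezhip, nonTG against C57BL/6) to 0.63 (Ezhip, KDM1A TG against nonTG). Values of Ezhip itself spanned 0.49 over the C57BL/6 pools, 0.87 over the KDM1A TG pools and 1.42 over the nonTG pools. The widest span among C57BL/6 pools was that of Suz12, at 1.66. The number of arrays limits the precision. The 95% interval spanned 0.669-fold to 1.64-fold for Eed in KDM1A TG against C57BL/6 and 0.921-fold to 2.61-fold for Ezhip in KDM1A TG against nonTG, so a p that missed the threshold does not show equal levels.

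**Figure D1:**
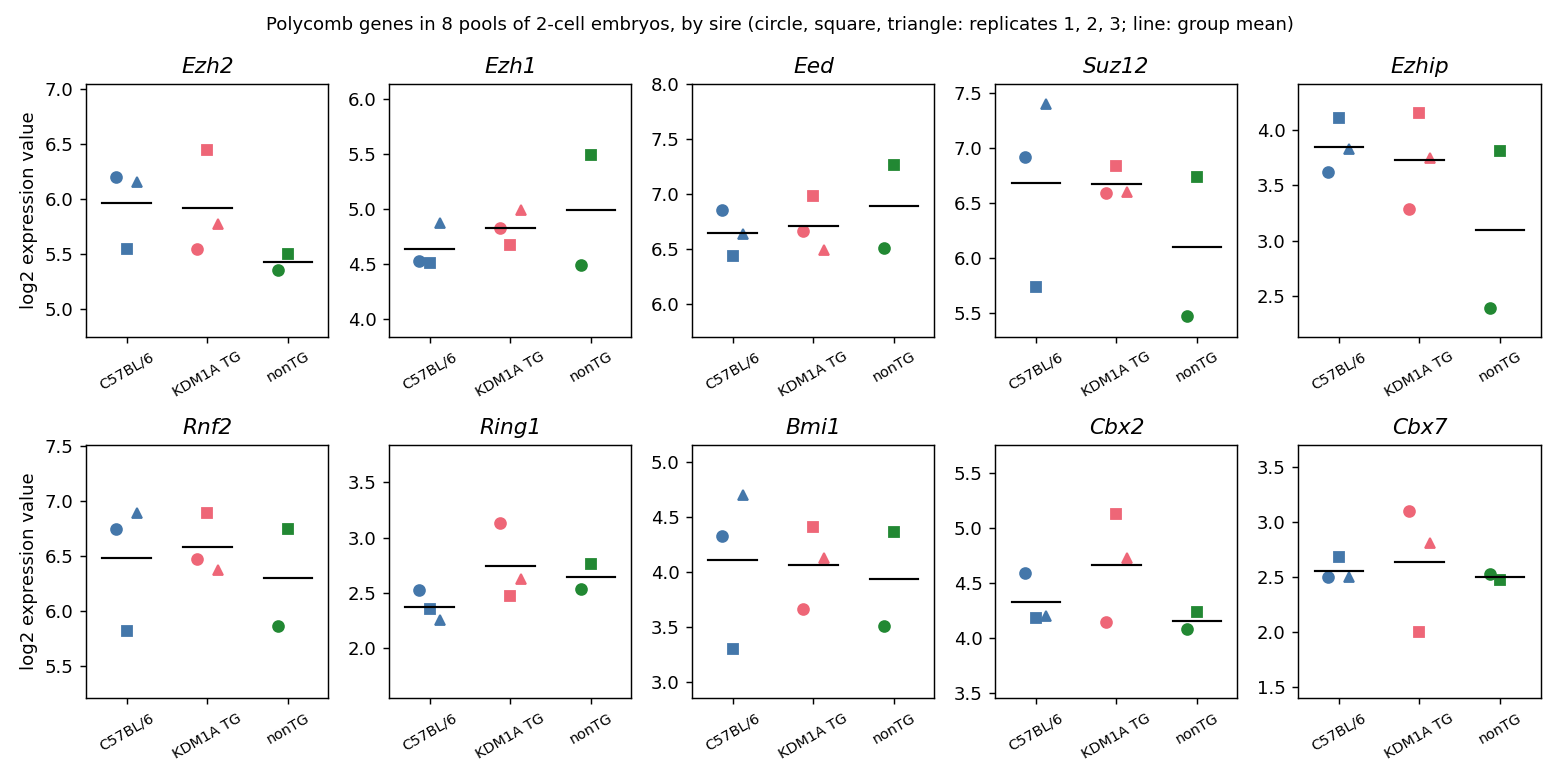
The log2 expression value (vertical axis, 1 panel per gene, all panels spanning the same range) of 10 Polycomb genes in each array, by sire group; symbols mark replicate numbers and lines group means. C57BL/6 replicate 2 and nonTG replicate 1 (square and circle) lie low for Suz12, Rnf2 and Bmi1, and nonTG replicate 1 is alone at 2.39 for Ezhip.

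Ezhip gave the largest difference of the 10. It stood at 3.62, 4.11 and 3.83 in the C57BL/6 arrays, at 3.29, 4.16 and 3.75 in the KDM1A TG arrays and at 2.39 and 3.81 in the nonTG arrays. The lowest array was nonTG replicate 1, and nonTG replicate 2 lay within the range of both other groups. The means were 3.85 ± 0.24 (SD, n = 3) for C57BL/6, 3.73 ± 0.43 (SD, n = 3) for KDM1A TG and 3.10 ± 1.0 (SD, n = 2) for nonTG, and no neighbours in this order differed beyond their spread. The nonTG embryos had a log2 difference of -0.76 from C57BL/6 (SE 0.38, 0.592-fold, 95% interval 0.351 to 0.997), with an unadjusted p of 0.0488 and an adjusted p of 0.602 by limma. Without nonTG replicate 1 (a lone nonTG array is assumed to vary like the arrays of other groups) the difference was -0.05, and without nonTG replicate 2 it was -1.47 (adjusted p = 0.982 and 0.33 by limma). KDM1A TG embryos differed from nonTG by 0.63 (SE 0.38, adjusted p = 0.834) and from C57BL/6 by -0.12 (SE 0.34, adjusted p = 0.87), and without nonTG replicate 1 the first of these was -0.08.

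Ezh2, the main H3K27 methyltransferase, was lower in both nonTG arrays than in any other array, by a small margin. Its values were 6.20, 5.54 and 6.15 in C57BL/6, 5.54, 6.44 and 5.77 in KDM1A TG and 5.35 and 5.50 in nonTG. The highest nonTG value thus lay just under the lowest of the other groups. The group means were 5.96 ± 0.37, 5.91 ± 0.47 (SD, n = 3 each) and 5.43 ± 0.11 (SD, n = 2). The nonTG difference of -0.53 from C57BL/6 (SE 0.37, 95% interval -1.26 to 0.20, adjusted p = 0.704) and the KDM1A TG difference of 0.49 from nonTG (SE 0.37, interval -0.24 to 1.22, adjusted p = 0.847) did not pass limma's test. KDM1A TG and C57BL/6 embryos differed by -0.05 (interval -0.70 to 0.61). Such separation of the arrays was common: 9.41% of all genes were lower in both nonTG arrays than in every C57BL/6 array, and 16% were higher in all KDM1A TG arrays than in both nonTG arrays.

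Ezh1, the paralogue, had other low and high arrays. It stood at 4.53, 4.51 and 4.87 in C57BL/6, at 4.83, 4.67 and 4.99 in KDM1A TG and at 4.49 and 5.49 in nonTG, so the lowest and the highest array were both nonTG. The differences from C57BL/6 were 0.19 (SE 0.33, adjusted p = 0.781) for KDM1A TG and 0.35 (SE 0.37, adjusted p = 0.798) for nonTG. Over the 8 arrays Ezh1 and Ezh2 had a Pearson correlation of -0.18 and a Spearman correlation of 0.12, and the Pearson value was 0.16 without KDM1A TG replicate 2 and C57BL/6 replicate 1, so its sign was not settled.

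Eed, which reads the finished mark, was the steadiest of the PRC2 core subunits. It measured 6.86, 6.44 and 6.64 in C57BL/6, 6.67, 6.98 and 6.49 in KDM1A TG and 6.51 and 7.27 in nonTG. Its 8 values spanned 0.83, and its pooled SD within groups was 0.32 against a median of 0.36 over all genes tested. The difference from C57BL/6 was 0.07 (95% interval -0.58 to 0.71) in KDM1A TG and 0.25 (interval -0.48 to 0.97) in nonTG.

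Suz12, the scaffold of PRC2, varied most of the 10 between pools of the same sire group. Its values were 6.92, 5.74 and 7.40 in C57BL/6, 6.59, 6.84 and 6.60 in KDM1A TG and 5.47 and 6.74 in nonTG. C57BL/6 replicate 2 and nonTG replicate 1 stood well below the next lowest array, and the 3 KDM1A TG arrays lay within 0.25 of each other. The pooled SD within groups was 0.68, higher than in 95.7% of the genes tested. The group means of 6.69, 6.68 and 6.10 gave a nonTG difference from C57BL/6 of -0.58 (SE 0.39, adjusted p = 0.697 by limma) and a KDM1A TG difference of -0.01 (95% interval -0.70 to 0.68, adjusted p = 0.992). Leaving out C57BL/6 replicate 2 moved the nonTG difference to -1.06 (adjusted p = 0.213), leaving out C57BL/6 replicate 3 to -0.23, and leaving out nonTG replicate 1 to 0.05.

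Among PRC1 genes, the ligase gene Rnf2 and its partner Bmi1 had the same low arrays. Rnf2 stood at 6.74, 5.82 and 6.89 in C57BL/6, at 6.47, 6.89 and 6.37 in KDM1A TG and at 5.86 and 6.74 in nonTG. Bmi1 stood at 4.32, 3.30 and 4.70 in C57BL/6, at 3.66, 4.41 and 4.12 in KDM1A TG and at 3.51 and 4.36 in nonTG. For both genes the groups overlapped fully and C57BL/6 replicate 2 was the lowest array. Rnf2 differed from C57BL/6 by 0.09 in KDM1A TG and by -0.18 in nonTG (SE 0.33 and 0.37, adjusted p = 0.905 and 0.894 by limma). Bmi1 differed by -0.05 and -0.17 (SE 0.34 and 0.38, adjusted p = 0.953 and 0.903). Their pooled SDs within groups, 0.49 and 0.58, exceeded those of 81.0% and 90.9% of genes tested.

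Ring1, the paralogue of Rnf2, was dim and moved differently. It read 2.52, 2.35 and 2.25 in C57BL/6, 3.13, 2.47 and 2.62 in KDM1A TG and 2.53 and 2.76 in nonTG. Both nonTG arrays lay above the C57BL/6 arrays, narrowly for replicate 1, which 15.4% of genes also showed in this direction. The differences from C57BL/6, 0.37 in KDM1A TG and 0.27 in nonTG (SE 0.32 and 0.36, adjusted p = 0.58 and 0.842), did not pass.

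Cbx2 and Cbx7, the chromodomain readers, had their widest spread among KDM1A TG arrays. Cbx2 measured 4.14, 5.12 and 4.72 in KDM1A TG, 4.59, 4.18 and 4.20 in C57BL/6 and 4.08 and 4.23 in nonTG. Its KDM1A TG mean of 4.66 ± 0.49 (SD, n = 3) was above those of C57BL/6 (4.33 ± 0.23, n = 3) and nonTG (4.15 ± 0.10, n = 2), by 0.33 and 0.51, and neither difference passed (adjusted p = 0.616 and 0.847 by limma). KDM1A TG replicate 1 was as low as the nonTG arrays. Cbx7 went the other way in the same arrays, at 3.10, 2.00 and 2.81 in KDM1A TG, against 2.50, 2.68 and 2.50 in C57BL/6 and 2.53 and 2.47 in nonTG. Its value in KDM1A TG replicate 2 was under the filter level of 2.07, so it is a dim reading, and its differences from C57BL/6 were 0.08 and -0.06 (adjusted p = 0.921 and 0.971).

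Counted together, 0 of the 10 genes passed limma's test in KDM1A TG against C57BL/6 (0.725% of all genes passed), with adjusted p from 0.58 to 0.992. None had an unadjusted p under 0.05, which 14.2% of all genes did, and none had arrays that did not overlap (19.8% of all genes). In that comparison 6 were above 0 and 4 below, with a median of 0.07. Of all genes, 64.9% were above 0, with a median of 0.18. Other scalings changed the split of the 10: 3 were above 0 under quantile or cyclic loess scaling, and 9 with array medians set equal. All genes then had medians of 0.09, 0.07 and 0.25. In nonTG against C57BL/6, 0 of 10 passed (0.131% of all genes), with adjusted p from 0.602 to 0.971, 1 (Ezhip) had an unadjusted p under 0.05 (8.22% of all genes), and 2 (Ezh2 and Ring1) had arrays that did not overlap (24.8% of all genes). There 3 were above 0 and 7 below, with a median of -0.17 against 0.04 for all genes, of which 53.2% were above 0. In KDM1A TG against nonTG, 0 of 10 passed (0.0437% of all genes) and 0 had an unadjusted p under 0.05 (6.41% of all genes), and Ezh2 alone had arrays that did not overlap (22.4% of all genes). Of the 10, 8 were above 0, with a median of 0.20 against 0.16 for all genes, of which 65.4% were above 0. Each pair of comparisons shares a group of arrays, so they are not independent of one another. Without nonTG replicate 1 the medians of the 10 were 0.15 (nonTG minus C57BL/6) and -0.07 (KDM1A TG minus nonTG). Without nonTG replicate 2 they were -0.42 and 0.56, with 1 and 10 of the 10 genes above 0.

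**Figure D2:**
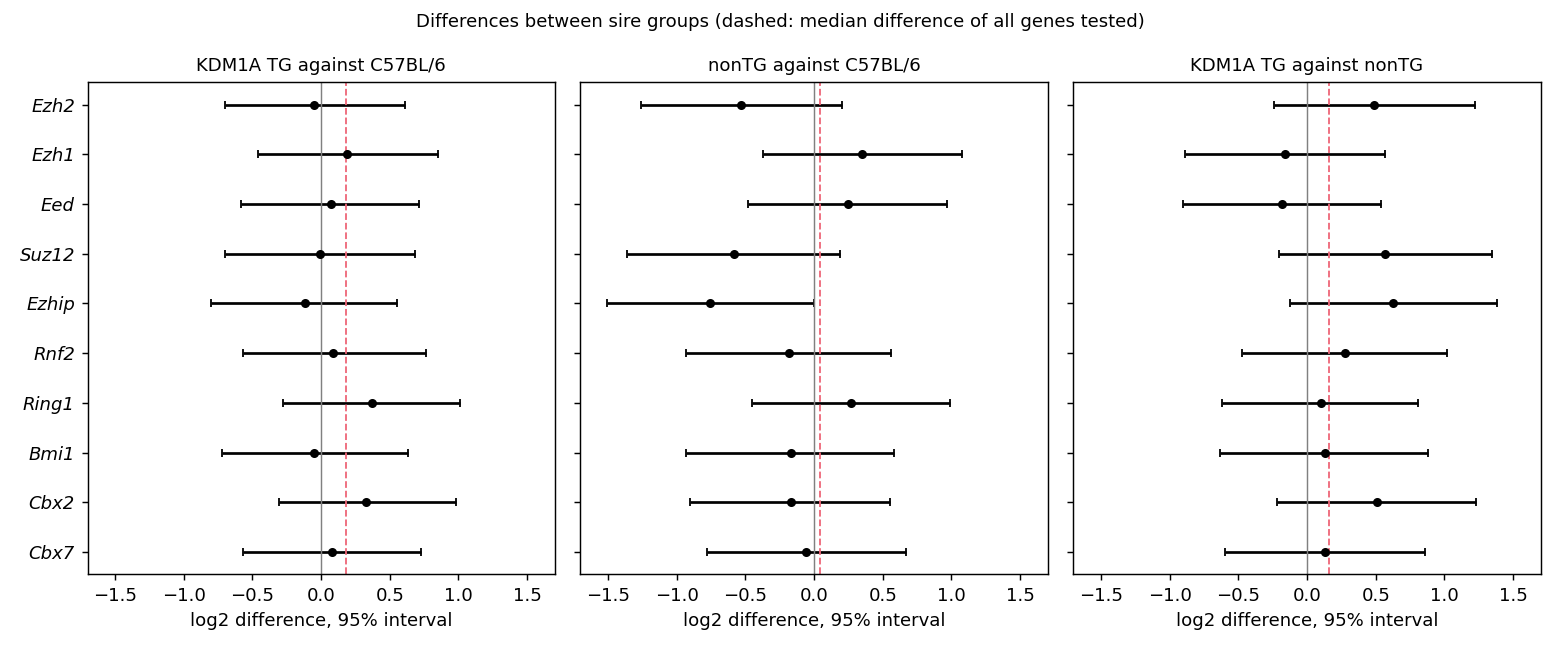
Log2 difference between sire groups (horizontal axis) of 10 Polycomb genes, with the 95% interval from limma on all 8 arrays; the dashed line is the median difference of all 11444 genes tested. All intervals include 0 except that of Ezhip in nonTG against C57BL/6, which ends just below it (0.997-fold).

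Several of the genes varied more between pools than between sire groups. Suz12, Rnf2 and Bmi1 varied together over the 8 arrays, with Pearson correlations of 0.95 (Suz12 and Rnf2), 0.91 (Suz12 and Bmi1) and 0.93 (Rnf2 and Bmi1) and Spearman correlations of 0.88, 0.90 and 0.98. Without C57BL/6 replicate 2 and nonTG replicate 1, the arrays farthest from the median, Pearson correlations were 0.75, 0.81 and 0.80. They were 0.95, 0.92 and 0.96 after quantile normalization and 0.95, 0.90 and 0.95 after cyclic loess. Ezh2 followed Suz12 less closely (0.71) and was nearest to Cbx2 (0.76, or 0.32 without KDM1A TG replicate 2 and C57BL/6 replicate 1). Eed correlated with Suz12 at 0.47, or at -0.06 without the low pair of arrays. Ezhip correlated with Suz12 at 0.52 and with Ezh2 at 0.55, and without nonTG replicate 1 and KDM1A TG replicate 1 at -0.46 and 0.06. Such correlations describe 8 arrays that share the amplification and labelling of each pool, and 4.98% of all other genes tested correlated with Suz12 at 0.8 or more.

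**Figure D3:**
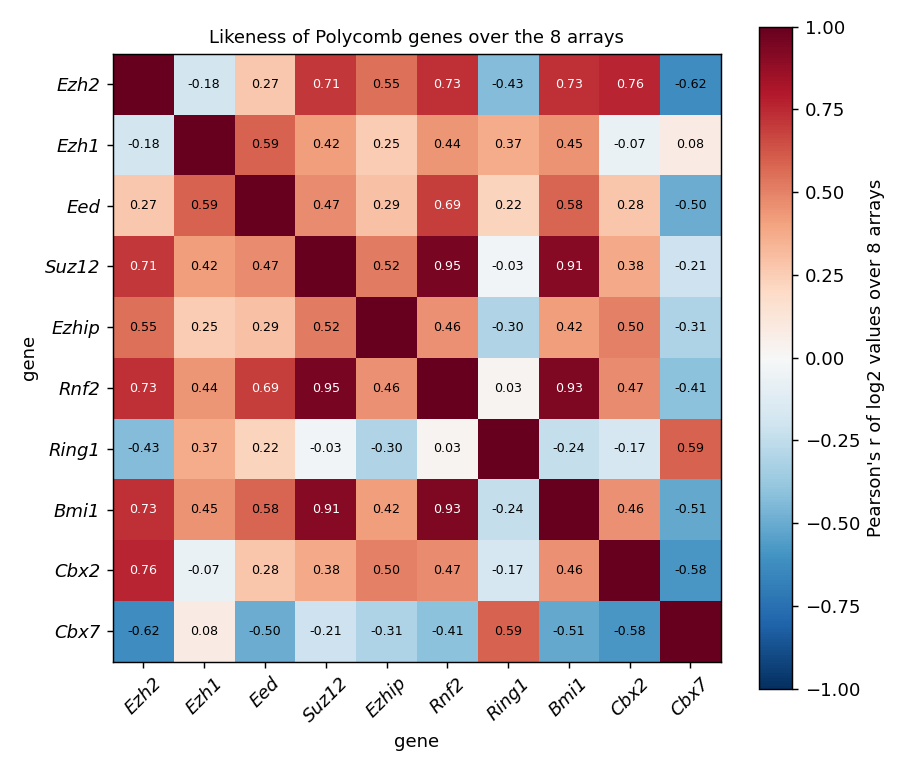
Pearson correlation of log2 values over the 8 arrays for each pair of the 10 Polycomb genes (colour and printed number). Suz12, Rnf2 and Bmi1 form a block at 0.91 to 0.95, and Cbx7 lies below 0 with Ezh2 (-0.62), Cbx2 (-0.58) and Bmi1 (-0.51).

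Markers of the embryo's stage and of its surroundings moved with these pools. The mean of the 13 2-cell stage markers above the filter was 4.15 to 4.97 in C57BL/6, 4.33 to 4.94 in KDM1A TG and 3.67 to 4.63 in nonTG, lowest in nonTG replicate 1 and next in C57BL/6 replicate 2. It ranked the 8 arrays exactly as Suz12 did (Spearman 1, Pearson 0.93), and correlated with Rnf2 at 0.92 and with Bmi1 at 0.88. The mean of 17 oocyte transcripts (4.70 to 5.61, 4.81 to 5.62 and 4.27 to 4.80 in the same order of groups) was closest to Ezh2, at 0.96, or 0.93 without the 2 arrays farthest from the median. Of all other genes, 4.80% reached 0.8 with the 2-cell mean and 3.71% with the oocyte mean. With Ezh1, Ring1 and Cbx7 the oocyte mean correlated at -0.06, -0.31 and -0.51, and without the same 2 arrays at 0.37, -0.26 and -0.05.

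Oviduct epithelium markers, whose mean was 5.08 to 5.77 in C57BL/6, 5.49 to 6.17 in KDM1A TG and 5.74 to 6.02 in nonTG, ran against Ezh2 (-0.73), Bmi1 (-0.68), Suz12 and Rnf2 (-0.61 each). Without C57BL/6 replicates 1 and 3, the farthest from the median, these were -0.60, -0.40, -0.21 and -0.40. Over all 8 arrays they were -0.94, -0.81, -0.88 and -0.86 after quantile normalization and -0.93, -0.88, -0.91 and -0.94 after cyclic loess. With Ring1 and Cbx7 the oviduct mean correlated at 0.66 and 0.62. Stromal and muscle markers (3.73 to 4.56, 4.50 to 6.11 and 3.98 to 5.49) correlated with Eed and Rnf2 at -0.56 each, or at -0.31 and -0.51 without KDM1A TG replicate 3 and nonTG replicate 1. Over all 8 arrays these correlations were -0.74 each after quantile normalization and -0.80 and -0.76 after cyclic loess. For the oviduct and stromal means, the share of all genes with such correlations was not computed. These correlations are therefore not shown to be particular to the Polycomb genes. Cumulus and granulosa markers (6 of 6 measured ones above the filter, 2.36 to 3.72), blood and immune markers (8 of 8, 2.72 to 4.32) and sperm markers (4 of 6, 2.30 to 2.72) were also measured, and Smcp and Spata3 of the sperm list lay under the filter. Of the marker lists, 1 of 18 stromal genes passed as higher and 1 of 8 blood genes as lower in KDM1A TG against C57BL/6. Of all genes, 0.725% passed there. In nonTG against C57BL/6 and KDM1A TG against nonTG 0 markers passed, where 0.131% and 0.0437% of all genes did. In pooled embryos fewer embryonic cells and less RNA per cell cannot be told apart, and the part of flushed maternal cells in these values was not tested.

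**Figure D4:**
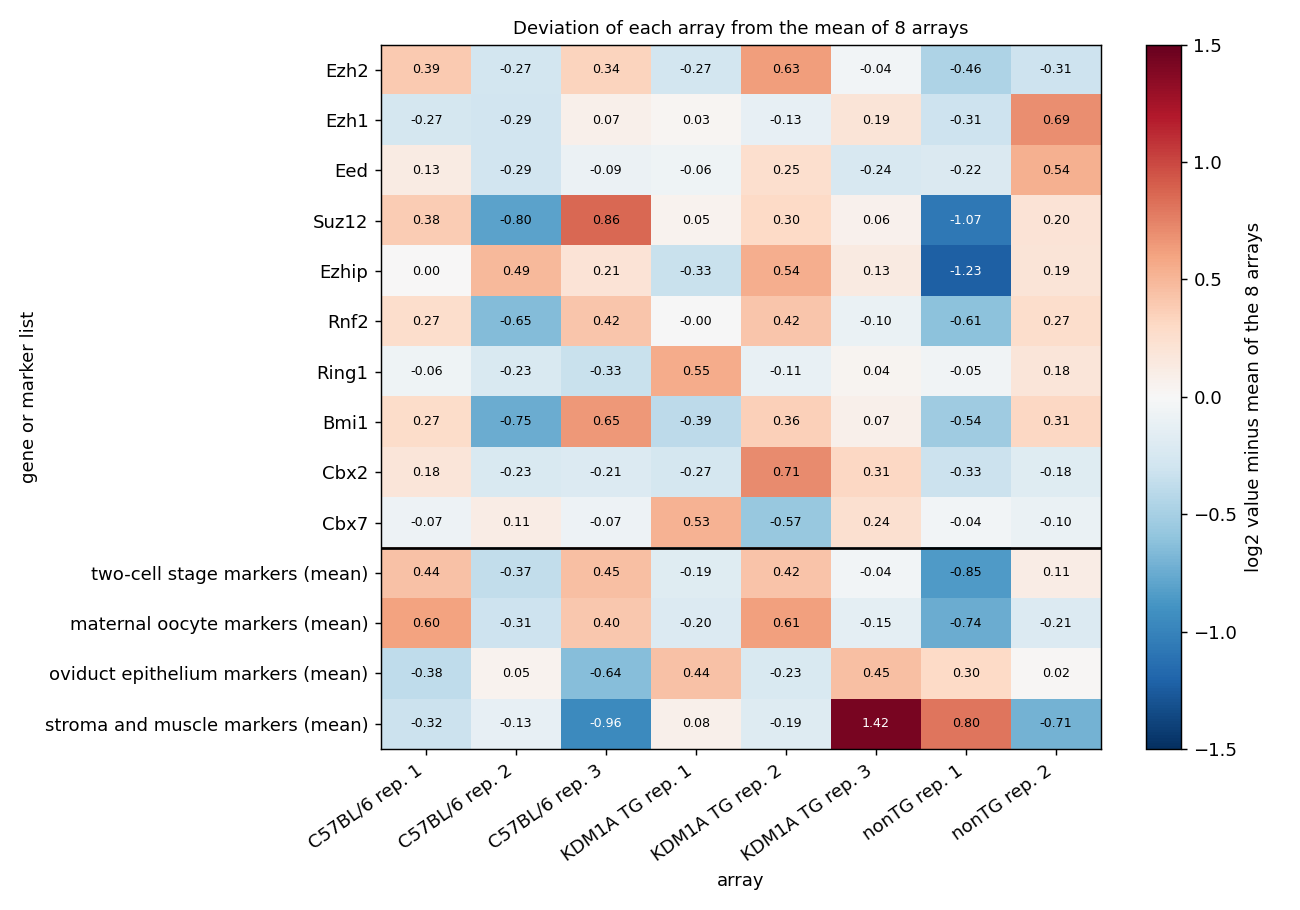
Deviation of each array (columns) from the mean of the 8 arrays, in log2 units, for the 10 Polycomb genes (above the line) and for the means of 4 marker lists (below it). In nonTG replicate 1 all 10 genes lie below their own mean (50.8% of all genes tested), and in C57BL/6 replicate 2 8 of 10 do (57.4%).

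In nonTG replicate 1 all 10 genes were below their own mean over the arrays, with a median deviation of -0.39. Of all genes tested, 50.8% were below theirs in that array, with a median deviation of -0.01. In C57BL/6 replicate 2 there were 8 of the 10 (median -0.28), and 57.4% of all genes (median -0.07). KDM1A TG replicate 2 lay highest, with a median of 0.33 against -0.02 for all genes. The lowest array was nonTG replicate 1 for 5 of the 10 genes and C57BL/6 replicate 2 for 3. The highest was C57BL/6 replicate 3 or KDM1A TG replicate 2 for 3 each. The share of all genes lowest or highest on each array was not computed.

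The genes whose values were most like those of Suz12 over the 8 arrays were Zfand5 (Pearson 0.994), the transcription elongation factor gene Eloa (0.986) and Cdr2 (0.984), and 175 of 10067 genes compared exceeded 0.9. For Eed they were the F-box gene Fbxw24 (0.948), the zinc finger gene Zfp382 (0.946) and the sphingolipid desaturase gene Degs1 (0.942), with 16 genes above 0.9. For Ezhip they were the homeobox gene Hhex (0.918), the transporter gene Slc16a6 (0.908) and the cytokine gene Lta (0.90). Hhex read 2.92 in nonTG replicate 1 and 3.52 to 3.89 elsewhere.

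Other genes of the pathway were counted by role. Of 8 PRC2 accessory genes tested, 0 passed in any comparison with arrays weighted equally. Rbbp4 and Rbbp7, histone-binding WD proteins that PRC2 shares with other chromatin complexes, were lower in all C57BL/6 arrays than in all others, a separation that 19.8% of all genes showed in either direction against KDM1A TG and 15.4% showed in this direction against nonTG. Rbbp4 read 5.01, 5.75 and 5.72 in C57BL/6, 6.39, 6.18 and 6.60 in KDM1A TG and 6.10 and 6.44 in nonTG. Its differences from C57BL/6 were 0.89 (SE 0.32, adjusted p = 0.195 by limma) and 0.77 (SE 0.36, adjusted p = 0.567), and those of Rbbp7 were 0.55 and 0.52 (adjusted p = 0.42 and 0.701). With array weights, under which 1694 of 11444 genes passed in KDM1A TG against C57BL/6, the first Rbbp4 difference was 1.10 and passed (adjusted p = 0.00536). Lcor differed by 0.53 in KDM1A TG from C57BL/6 (adjusted p = 0.437) and by 0.37 from nonTG (adjusted p = 0.853). Phf19 differed by -0.40 in nonTG from C57BL/6 and by 0.51 in KDM1A TG from nonTG, and Phf1 by 0.34 in the latter (adjusted p = 0.781, 0.847 and 0.872).

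Of 16 other PRC1 genes tested, 0 passed in any comparison with arrays weighted equally. In KDM1A TG against nonTG all 16 were above 0, with a median of 0.24 where that of all genes was 0.16 and 65.4% of all genes were above 0. Against C57BL/6, 13 of the 16 were above 0 in KDM1A TG (64.9% of all genes) and 7 in nonTG (53.2%). The 16 genes were not counted again without nonTG replicate 1. Mga, a DNA-binding partner of a PRC1 variant, read 4.60, 4.57 and 5.35 in C57BL/6, 4.63, 5.25 and 5.19 in KDM1A TG and 4.26 and 4.12 in nonTG. Both nonTG arrays were lower than all others. Of all genes, 9.41% were lower in both nonTG arrays than in every C57BL/6 array. Another 16% were higher in all KDM1A TG arrays than in both nonTG arrays, a share that may overlap the first. The Mga differences were -0.65 for nonTG from C57BL/6 and 0.84 for KDM1A TG from nonTG (adjusted p = 0.658 and 0.77 by limma). Pcgf5, a Pcgf partner of the ligases, differed by -0.66 and 0.76 in these comparisons (adjusted p = 0.663 and 0.775), L3mbtl2 by -0.54 in the first (adjusted p = 0.693) and Pcgf1 by 0.67 in the second (adjusted p = 0.82). Leaving out nonTG replicate 1 brought the Pcgf5 differences to -0.22 and 0.33, and leaving out nonTG replicate 2 to -1.09 and 1.19. In KDM1A TG against C57BL/6 the smallest p belonged to Dcaf7 (0.82, adjusted p = 0.237), Scmh1 (0.58, adjusted p = 0.396) and the repressor gene E2f6 (0.55, adjusted p = 0.427). Dcaf7 passed with array weights (1.04, adjusted p = 0.00761).

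Of 9 genes tested whose products oppose Polycomb, 0 passed. The H2A deubiquitinase gene Bap1 differed by 0.53 in KDM1A TG from C57BL/6, the H3K27 demethylase gene Kdm6b by -0.34 and the remodelling ATPase gene Smarca4 by 0.32 (adjusted p = 0.458, 0.618 and 0.63). In nonTG against C57BL/6, Arid1a, Smarca4 and Usp16 differed by -0.53, -0.48 and -0.38 (adjusted p = 0.713, 0.728 and 0.795), and in KDM1A TG against nonTG by 0.56, 0.80 and 0.57 (adjusted p = 0.847, 0.772 and 0.847). Smarca4 was 3.45 in nonTG replicate 1 and 4.07 to 4.87 elsewhere. Over the fits that leave out 1 array, the nonTG differences from C57BL/6 ran from -0.84 to -0.21 for Arid1a, from -0.91 to -0.04 for Smarca4 and from -0.84 to -0.01 for Usp16. The values nearest 0 came without nonTG replicate 1 for Arid1a and Smarca4, and without C57BL/6 replicate 3 for Usp16.

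Of 6 genes whose imprinting in the mouse rests on H3K27 methylation from the oocyte, Gab1 was the one tested. It read 3.30, 3.63 and 3.58 in C57BL/6, 4.25, 3.46 and 4.64 in KDM1A TG and 4.37 and 3.91 in nonTG. The nonTG arrays and 2 of 3 KDM1A TG arrays lay above all C57BL/6 arrays. For nonTG, 15.4% of all genes showed such a separation in this direction. The differences from C57BL/6, 0.61 in KDM1A TG and 0.64 in nonTG, did not pass (adjusted p = 0.383 and 0.667 by limma). Without KDM1A TG replicates 1 and 3 the first was -0.04, and with array weights it was 0.82 and passed (adjusted p = 0.0353). KDM1A TG and nonTG differed by -0.02 (adjusted p = 0.992). The arrays highest for Gab1 were KDM1A TG replicates 1 and 3 and nonTG replicate 1. They also had the highest oviduct epithelium means (6.16, 6.17 and 6.02) and stromal means (4.77, 6.11 and 5.49). In nonTG replicate 2, also above all C57BL/6 arrays for Gab1, these means were 5.74 and 3.98. The part of these markers' cells in the Gab1 values was not tested.

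Of 24 developmental regulators tested that Polycomb is known to silence, 1 passed in KDM1A TG against C57BL/6, where 0.725% of all genes did, and 0 passed in the other comparisons. Hoxb8, a homeobox gene, rose in KDM1A TG embryos, to 3.63, 3.29 and 4.34 from 2.52, 2.60 and 2.20 in C57BL/6, a difference of 1.31 (SE 0.33, adjusted p = 0.0316 by limma). It read 3.64 and 3.20 in nonTG, 0.98 above C57BL/6 (adjusted p = 0.386), and the KDM1A TG difference from nonTG was 0.33 (adjusted p = 0.872). The call was lost after quantile normalization and cyclic loess (1.26 in both, adjusted p = 0.185 and 0.167) and without C57BL/6 replicate 1 or 3 or KDM1A TG replicate 1 or 3 (adjusted p = 0.111, 0.151, 0.0742 and 0.658). It was also lost over all probesets (adjusted p = 0.136) and without KDM1A TG replicates 1 and 3 together (0.85, adjusted p = 0.998). In the same comparison 18 of 18 stromal and muscle markers were above 0 (median 0.99), as were 15 of 16 oviduct epithelium markers (median 0.52). Of all genes, 64.9% were above 0 (median 0.18). KDM1A TG replicate 3, the highest array for Hoxb8, had the highest stromal mean (6.11). The part of these markers' cells in the Hoxb8 value was not tested. Sox17 (0.96, adjusted p = 0.18) and Hoxa5 (0.91, adjusted p = 0.192) followed in KDM1A TG, and Hoxb6 (0.75, adjusted p = 0.587) and Sox17 (0.77, adjusted p = 0.592) in nonTG. Sox17 passed in KDM1A TG against C57BL/6 with array weights (1.06, adjusted p = 0.00863) and without C57BL/6 replicate 2 (1.30, adjusted p = 0.0347). Between KDM1A TG and nonTG, Hoxa5, Pax2 and Hoxc10 differed by 0.75, 0.58 and -0.50 (adjusted p = 0.775, 0.842 and 0.847). The median of the 24 genes was 0.09, 0.04 and 0.07 in the 3 comparisons, against 0.18, 0.04 and 0.16 for all genes.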

How the data were processed

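Pooled embryo RNA was amplified, biotin-labelled and hybridised to Affymetrix arrays, 1 array a pool. The authors deposited log2 expression values, 1 per probeset. Per the submitters' processing notes, R 3.1.0 was used with limma, oligo and RMA, in no stated order. Which background correction they applied is not given in the sources used here. No scanner file was analysed, and the filter on dim probesets replaces a detection call.

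The 22961 probesets split into 15745 with a single gene symbol, 1320 with more and 5896 with none here. Platform symbols were updated through RefSeq gene identifiers of GRCm38.p6 (15621 found). The brightest probeset stood for its gene, and a gene was tested if its mean lay over the 30th percentile of probesets. The deposited values were not rescaled. All 8 arrays entered 1 limma model of group means (lmFit, eBayes; limma 3.58.1, R 4.3.3), with two-sided tests, 95% intervals and Benjamini-Hochberg adjustment over 11444 genes at 0.05. The code was tested on simulated data.

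Members, lists and tests were chosen with earlier results of these data known. Named are the 10 members, list genes that passed, the 3 of smallest p per list and comparison, and the 3 genes most like Ezhip, Eed and Suz12 (predicted genes, small RNA genes and receptor families left out). Alternatives changed the filter, scaling, variance model, array weights, arrays fitted, features tested and the replicate block. Applying them to the other Polycomb genes was decided after seeing the data.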

Additional observations from a re-analysis of the deposited data

How the results depend on the processing

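No alternative that was run made any of the 10 Polycomb genes pass in any of the 3 comparisons, so the count of 0 did not move. Of the other named Polycomb genes, in KDM1A TG against C57BL/6, Rbbp4, Dcaf7, Gab1 and Sox17 passed with array weights (1.10, 1.04, 0.82 and 1.06, adjusted p = 0.00536, 0.00761, 0.0353 and 0.00863 by limma), and Sox17 without C57BL/6 replicate 2 (1.30, adjusted p = 0.0347). The count of all genes that passed in KDM1A TG against C57BL/6 was 83, and 138 with no filter, 5 with quantile, 5 with cyclic loess, 151 with median centring, 1694 with array weights, 7 with all probesets and 0 without KDM1A TG replicates 1 and 3, and 9 to 262 without single arrays. The count of all genes that passed in nonTG against C57BL/6 was 15, and 44 with no filter, 1 with quantile, 1 with cyclic loess, 5 with 2 groups only, 23 with replicate block, 47 with array weights, 0 with all probesets and 3 without KDM1A TG replicates 1 and 3, and 3 to 79 without single arrays. The count of all genes that passed in KDM1A TG against nonTG was 5, and 2 with quantile, 2 with cyclic loess, 8 with 2 groups only, 3 with array weights and 2 without KDM1A TG replicates 1 and 3, and 2 to 17 without single arrays. Signs turned for differences that did not pass, as follows. With quantile in KDM1A TG against C57BL/6, Eed stood at -0.22, Ezh1 at -0.08 and Rnf2 at -0.19. With cyclic loess in KDM1A TG against C57BL/6, Eed stood at -0.30, Ezh1 at -0.13 and Rnf2 at -0.27. With median centring in KDM1A TG against C57BL/6, Ezh2 stood at 0.02, Suz12 at 0.06 and Bmi1 at 0.02. With array weights in KDM1A TG against C57BL/6, Eed stood at -0.06, Rnf2 at -0.08 and Cbx2 at 0.00. Without KDM1A TG replicates 1 and 3 in KDM1A TG against C57BL/6, Ezh2 stood at 0.47, Suz12 at 0.16, Bmi1 at 0.30, Cbx7 at -0.56, Ezhip at 0.30 and Gab1 at -0.04. Leaving out single arrays in KDM1A TG against C57BL/6 gave ranges of -0.31 to 0.14 for Ezh2, -0.48 to 0.35 for Suz12, -0.45 to 0.25 for Bmi1, -0.07 to 0.18 for Eed, -0.24 to 0.29 for Rnf2, -0.34 to 0.10 for Ezhip and -0.15 to 0.39 for Cbx7. With cyclic loess in nonTG against C57BL/6, Cbx7 stood at 0.01. Leaving out single arrays in nonTG against C57BL/6 gave ranges of -0.09 to 0.01 for Cbx7, -0.63 to 0.26 for Rnf2, -0.60 to 0.25 for Bmi1, -1.22 to 0.05 for Suz12, -0.13 to 0.62 for Eed and -0.15 to 0.85 for Ezh1. With quantile in KDM1A TG against nonTG, Bmi1 stood at -0.06. With cyclic loess in KDM1A TG against nonTG, Bmi1 stood at -0.09. With median centring in KDM1A TG against nonTG, Gab1 stood at 0.01. With array weights in KDM1A TG against nonTG, Bmi1 stood at -0.06 and Gab1 at 0.11. Without KDM1A TG replicates 1 and 3 in KDM1A TG against nonTG, Eed stood at 0.09, Ring1 at -0.17 and Cbx7 at -0.50. With replicate block in KDM1A TG against nonTG, Bmi1 stood at -0.04. Leaving out single arrays in KDM1A TG against nonTG gave ranges of -0.10 to 0.23 for Ring1, -0.10 to 0.45 for Cbx7, -0.30 to 0.55 for Bmi1, -0.28 to 0.31 for Gab1, -0.06 to 1.21 for Suz12, -0.17 to 0.72 for Rnf2, -0.08 to 1.34 for Ezhip, -0.37 to 1.05 for Phf1, -0.55 to 0.20 for Eed and -0.66 to 0.34 for Ezh1. The labels do not say whether replicate numbers pair the samples. Same-numbered arrays of KDM1A TG and C57BL/6 deviated from their group means with correlations of -0.07, -0.38 and -0.11. For KDM1A TG and nonTG these were 0.11 and 0.18, and for nonTG and C57BL/6 0.01 and -0.25. Deviations within a group of 3 or 2 arrays sum to 0, so these correlations cannot decide whether pools were paired. With replicate number as a block 76, 23 and 4 genes passed, and none of the 10 did. Each of the 10 genes had 1 probeset of its own, so the alternative of another probeset was not run. At an unadjusted p under 0.05, 304 genes stood where 0 passed without KDM1A TG replicates 1 and 3, and 1273 where 0 passed with all probesets. The cause of these shifts was not tested. Depth in the sense of reads does not apply to arrays, and the number of arrays limits the precision. With 1 array left in a group, its spread was taken from the other groups.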
